A study of Mus musculus with 7 samples.

Results

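The 10 genes described here encode secreted or shed factors through which microglia can act on neighbouring cells, namely Spp1, Gpnmb, Igf1, Vegfa, Vegfb, Pdgfa, Pdgfb, Bdnf, Gdf15 and Hbegf. They were taken by name from the 55341 gene names of the count table. Microglia, the resident macrophages of the brain, were sorted as CD11b+CD45low cells from cortex of 5xFAD mice, which carry transgenes under the neuronal Thy1 promoter that lead to deposition of amyloid-β (Aβ). All recipients had the 5xFAD genotype on C57BL/6, had an age of 14 weeks and were sampled 4 weeks after WT cells from embryonic cortex had been injected. RNA was sequenced from cells inside the WT graft (3 libraries, labelled Graft) and from small pieces of cortex near it (4 libraries, labelled Control, here outside the graft), so both groups came from mice that carried the transgenes and a graft. Neither a mouse without a graft nor a WT recipient was part of the comparison, and the labels do not say how many mice went into a library or whether inside and outside pieces shared a mouse. P values therefore measure the spread between these libraries.

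Osteopontin, the product of Spp1, is a secreted phosphoprotein that binds integrins and CD44. Gpnmb encodes a transmembrane glycoprotein of lysosomes and the cell surface whose outer part can be shed, and Igf1 encodes a growth factor that acts on neurons and oligodendrocytes through the IGF1 receptor. In mouse models of amyloid deposition all 3 are known as genes of the microglial state found at plaques. The VEGF and PDGF families act mainly on vessels, pericytes and oligodendrocyte precursors. BDNF is a neurotrophin that signals through TrkB, GDF15 is a stress-induced cytokine of the TGF-β superfamily, and HB-EGF is a ligand of the EGF receptor.

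Between 18644807 and 25882122 reads per library were counted on genes. Values are given as CPM, reads per 1000000 counted reads on library sizes scaled by TMM, a trimmed mean of the log ratios between libraries. The homeostatic microglia list (12 genes such as P2ry12 and Tmem119) summed to between 53004 and 61709 CPM inside the graft and between 61721 and 68730 CPM outside it. Homeostatic transcripts were thus abundant in every library. In the edgeR test described below, all 12 had a log2 fold change below 0, 7 at an unadjusted P below 0.05 (background 3.79%). In 5 of them all inside libraries lay below all outside ones (background 5.02%). The 2 sort marker genes summed to between 878 and 883 CPM inside the graft and between 613 and 866 CPM outside it. Both had an edgeR log2 fold change above 0, 1 of them at an unadjusted P below 0.05 (background 5.76%). In 1 of the 2 all inside libraries lay above all outside ones (background 5.65%). Monocyte markers (10 genes, of which S100a8, S100a9 and Chil3 took most of the counts and are also made by neutrophils) summed to 4367, 467 and 9282 CPM in inside graft 1, 2 and 3 and to between 7.20 and 192 CPM outside the graft. In limma's voomWithQualityWeights the libraries had weights between 0.448 for outside graft 1, which also had the fewest reads, and 1.76. Fold changes were fitted over all 15257 genes that passed the filter on low counts with edgeR's quasi-likelihood test and with voomWithQualityWeights, the test of the study. A gene was called below a Benjamini-Hochberg adjusted P of 0.05 over all 15257 genes.

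Of the 10 genes, 9 passed the filter, and 1 of them, Gpnmb, was called by edgeR, higher inside the graft, where the background was 0.0983% of all tested genes (15 genes, all higher inside). At the adjusted P of 0.01 that the study used, edgeR called 0 of the 9 and 0 of all genes. In voomWithQualityWeights 0 of the 9 passed 0.05 (background 0.492%, 75 genes) and 0 passed 0.01 (background 0.0197%, 3 genes). At an unadjusted P below 0.05 there were 3 of the 9 genes in edgeR (Spp1, Gpnmb and Igf1, all higher, where the background was 9.55% in either direction and 5.76% higher). In voomWithQualityWeights there were 4 (the same 3, and Pdgfb as the only one lower, where the background was 12.2% in either direction, 7.47% higher and 4.71% lower). For Spp1, Gpnmb, Igf1 and Vegfa the groups did not overlap and the inside libraries were the higher ones, an order found in 5.65% of all tested genes. The opposite order, found in 5.02%, held for none of the 9 (10.7% for both orders). Gpnmb passed the filter only through its counts inside the graft, so its place among the tested genes is not independent of its difference.

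**Figure D1:**
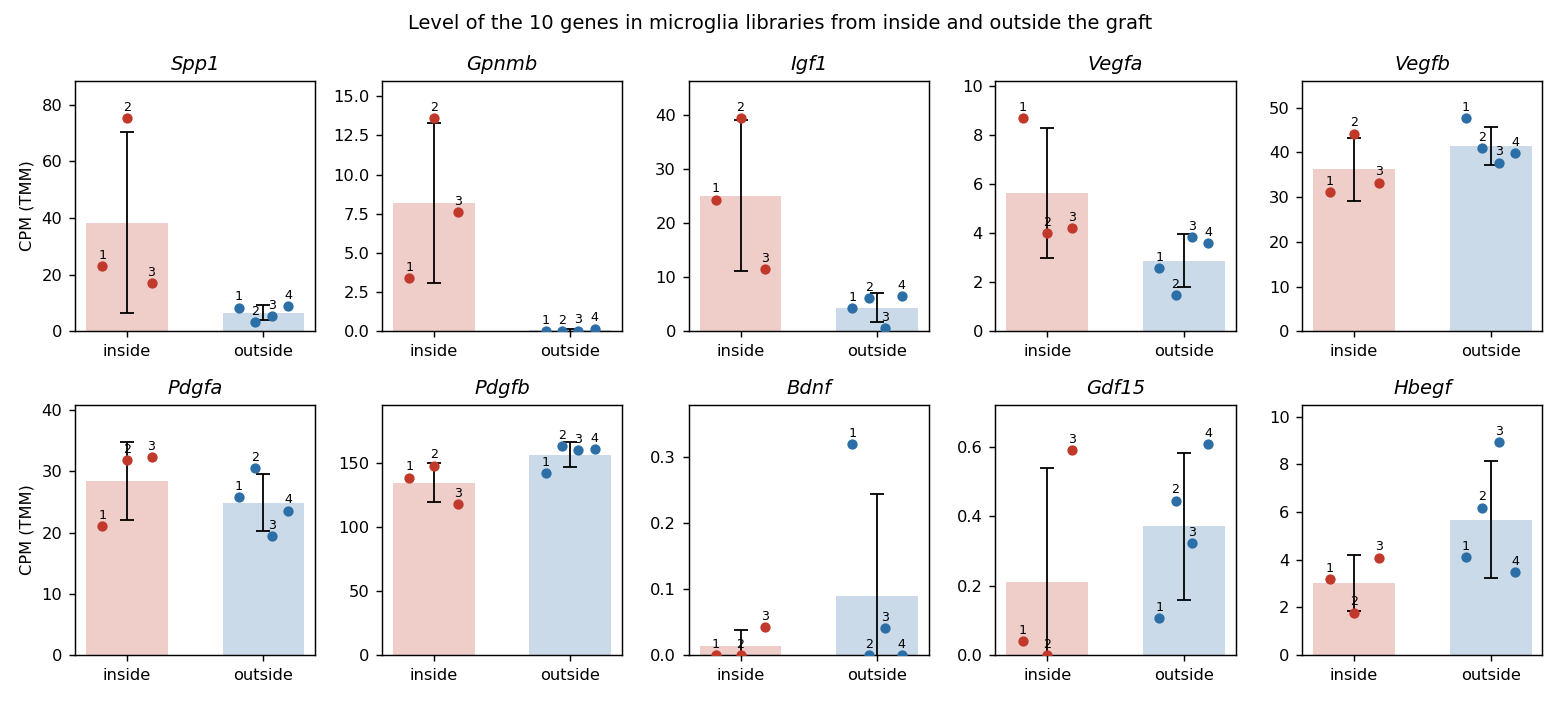
Level of each of the 10 genes in CPM (linear axes from 0, a scale of its own in each panel), with 1 numbered point per library, bars for the group mean and whiskers for the SD, which are cut off at 0. Spp1, Gpnmb, Igf1 and Vegfa had all 3 inside libraries above all 4 outside libraries, and inside graft 2 was the highest library for Spp1, Gpnmb and Igf1.

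Sequences just upstream of a transcription start of Spp1, Gpnmb and Igf1 are shown. They were chosen because all 3 genes were highest in inside graft 2. These genes also had the largest upward fold changes of the 9 tested genes in both tests. Each sequence is the stretch of 250 bases before a transcription start in RefSeq on GRCm38.p6. It is read on the plus strand, which is the strand of all 3 genes. The windows lie at chr5:104434861-104435110 for Spp1 (the upstream one of its 2 listed starts), at chr6:49036268-49036517 for Gpnmb and at chr10:87860861-87861110 for Igf1. The Igf1 window precedes the only start listed for that gene and lies inside the gene model, which begins at chr10:87858265. It is thus not upstream of the whole gene. Capitals mark every match, on either strand, to any of 7 motifs of factors known from macrophages, lysosomal genes, hypoxia or stress. The PU.1 and RUNX motifs were chosen after these sequences had been seen. The shares of all windows given for these motifs are therefore not an independent background.
Spp1: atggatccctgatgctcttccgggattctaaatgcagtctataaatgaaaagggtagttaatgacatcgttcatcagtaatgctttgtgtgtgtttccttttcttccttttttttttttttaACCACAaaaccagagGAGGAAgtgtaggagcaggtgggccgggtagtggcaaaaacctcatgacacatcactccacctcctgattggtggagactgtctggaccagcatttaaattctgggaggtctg
Gpnmb: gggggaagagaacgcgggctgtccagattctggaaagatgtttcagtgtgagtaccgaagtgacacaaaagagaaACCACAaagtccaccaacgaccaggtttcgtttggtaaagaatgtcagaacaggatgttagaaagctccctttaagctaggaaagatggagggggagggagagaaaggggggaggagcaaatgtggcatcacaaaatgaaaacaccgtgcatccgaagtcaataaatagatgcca
Igf1: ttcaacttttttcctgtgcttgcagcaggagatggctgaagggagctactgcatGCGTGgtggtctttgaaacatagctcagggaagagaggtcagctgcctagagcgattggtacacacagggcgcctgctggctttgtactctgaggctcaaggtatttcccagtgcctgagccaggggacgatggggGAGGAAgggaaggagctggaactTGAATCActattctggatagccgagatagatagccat
The PU.1 core GAGGAA, the binding letters of a factor that macrophages and microglia depend on, stood in the Spp1 window at bases -113 to -108 and in that of Igf1 at bases -60 to -55 before the start, and it stood in 23.3% of the 32851 promoter windows of the same length. The RUNX core ACCACA stood in the windows of Spp1 (bases -128 to -123) and Gpnmb (bases -175 to -170), and in 14.0% of all windows. The Igf1 window also held the AP-1 letters TGANTCA, as TGAATCA at bases -37 to -31 (6.75% of all windows), and the core of the hypoxia response element, searched as ACGTG or GCGTG, as GCGTG at bases -196 to -192 (38.6% of all windows). The E-box CATGTG bound by MITF and TFE3 (12.3% of all windows), the palindromic E-box CACGTG (6.02%), which contains the hypoxia core ACGTG, and the CHOP-ATF letters TGATGNAA (3.45%) were not in any of these 3 windows. These matches are letters only. No motif was shared by all 3 windows, and binding was not measured.

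Gpnmb (chr6:49036546-49070929) was nearly absent outside the graft and present in every inside library. It had 86, 306 and 181 counts in inside graft 1, 2 and 3, and 0, 0, 1 and 4 counts in outside graft 1, 2, 3 and 4. On the CPM scale these were 3.38, 13.6 and 7.62 inside and 0, 0, 0.0402 and 0.162 outside the graft. The 2 outside libraries without a count allowed at most 0.161 and 0.135 CPM (3 counts of the total), and the lowest inside value of 3.38 CPM lay above these limits. Its log2 fold change was 7.11 (standard error 0.93, 95% confidence interval 5.04 to 9.19) in edgeR and the adjusted P was 0.0357, and it was 6.58 (standard error 1.51) in voomWithQualityWeights with an adjusted P of 0.0831. Summed over libraries, 573 of 72858583 reads inside and 5 of 89899738 reads outside fell on Gpnmb, a ratio of 141 with a 95% interval of 60.2 to 437 that covers counting error only. Fewer cells with the transcript and less transcript per cell cannot be told apart in these bulk libraries, for Gpnmb as for every gene below. The edgeR call was lost without inside graft 3 (adjusted P = 0.113) and without outside graft 2, 3 or 4 (0.0550, 0.0703 and 0.0556), and voomWithQualityWeights called the gene without inside graft 1 (0.0413) or inside graft 2 (0.0468).

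Spp1 (chr5:104435118-104441050) was present in all 7 libraries and was higher in each inside library than in any outside one, without passing the adjusted threshold with the filter used here. It had 23.0, 75.2 and 17.0 CPM in inside graft 1, 2 and 3, and 8.32, 3.34, 5.47 and 8.99 CPM in outside graft 1, 2, 3 and 4. Inside graft 2 stood well above the rest, and the gap between the lowest inside library and the highest outside one was small beside the spread inside the graft. The log2 fold change was 2.55 (standard error 0.51, 95% confidence interval 1.41 to 3.70) in edgeR with an adjusted P of 0.0922, and 2.30 (standard error 0.53) in voomWithQualityWeights with an adjusted P of 0.0840. Without inside graft 2 the log2 fold change was 1.61 in edgeR (adjusted P = 0.182) and 1.67 in voomWithQualityWeights, which then called the gene (adjusted P = 0.0481). When only genes with at least 10 counts in each library were tested, both tests called Spp1 (adjusted P = 0.0237 in edgeR and 0.0272 in voomWithQualityWeights). The unnamed model Gm42793 shares exon bases with Spp1 on the same strand and held at most 6 counts per library.

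Igf1 (chr10:87858265-87937042), the growth factor of the group, was likewise present in all 7 libraries, at its highest in inside graft 2. There were 24.3, 39.3 and 11.4 CPM in inside graft 1, 2 and 3, and 4.32, 6.18, 0.523 and 6.48 CPM in outside graft 1, 2, 3 and 4. The groups did not overlap, and outside graft 3, with 13 counts, was far below the other outside libraries. In edgeR the log2 fold change was 2.51 (standard error 0.66, 95% confidence interval 1.05 to 3.98) with an adjusted P of 0.172, and in voomWithQualityWeights, where outside graft 3 had a high weight of 1.71, it was 3.18 (standard error 0.76) with an adjusted P of 0.0970. Without that library the values were 2.14 (adjusted P = 0.140) and 1.93 (adjusted P = 0.278). With the minimum of 10 counts the adjusted P was 0.0678 in edgeR and 0.0314 in voomWithQualityWeights. The antisense gene Igf1os shares no exon bases with Igf1 and held at most 5 counts in a library.

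Spp1, Gpnmb and Igf1 varied widely among the inside libraries. The highest inside library exceeded the lowest 4.43-fold for Spp1, 4.02-fold for Gpnmb and 3.44-fold for Igf1. Inside graft 2 was highest for each of them, whereas inside graft 3 was lowest for Spp1 and Igf1 and inside graft 1 was lowest for Gpnmb. The 16 genes of plaque-associated microglia, a list without Spp1, Gpnmb and Igf1, summed to 29174, 39688 and 22021 CPM in inside graft 1, 2 and 3 and to between 17704 and 24209 CPM outside the graft, and all 16 had a log2 fold change above 0 (3 called by edgeR, namely Axl, Lgals3 and Fabp5, where the background was 0.0983%, and 5 by voomWithQualityWeights, these and Itgax and Clec7a, where it was 0.492%). Inside graft 2 was thus also the highest library for that list.

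The lists of monocytes, border-associated macrophages, and lymphocytes and granulocytes had a different order. The monocyte sum of 467 CPM in inside graft 2 was the lowest inside the graft, as were the sums of border-associated macrophage markers (415 CPM, against 667 and 675 CPM in inside graft 1 and 3 and 539 to 638 CPM outside) and of lymphocyte and granulocyte markers (2.40 CPM, against 11.9 and 33.3 CPM). Of the 9 tested genes in each list, 8 monocyte and 8 border-associated macrophage markers had a log2 fold change above 0. The border-associated macrophage sum came mostly from Stab1. Lyve1, another of its 10 genes, had at most 0.63 CPM and was at 0 in 5 of the 7 libraries. At an adjusted P below 0.05 edgeR called none of these markers, and voomWithQualityWeights called 1 border-associated macrophage marker, Siglec1. At an unadjusted P below 0.05 in edgeR, 7 monocyte and 6 border-associated macrophage markers were higher and 0 lower (background 5.76% and 3.79%). In 4 genes of each list all inside libraries lay above all outside ones (background 5.65%). The median edgeR log2 fold changes were 2.94 and 2.46, in that order. In the same order, 2 and 4 of the 10 genes were below 1 CPM in every outside library. Some may be tested only through inside counts, so these shares and medians may not be independent of the difference. The 8 proliferation markers summed to 121, 87.9 and 147 CPM in inside graft 1, 2 and 3 and to between 8.17 and 37.7 CPM outside the graft, and voomWithQualityWeights called 2 of them, Top2a and Birc5. All 8 were higher at an unadjusted P below 0.05 in edgeR (background 5.76%). In all 8 the inside libraries lay above the outside ones (background 5.65%). Of these 8, 1 was below 1 CPM in every outside library, so the same limit may hold for it. Marker genes called here were named after their values were seen. The part of these other or dividing cells in the levels of Spp1, Gpnmb and Igf1 was not tested.

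**Figure D2:**
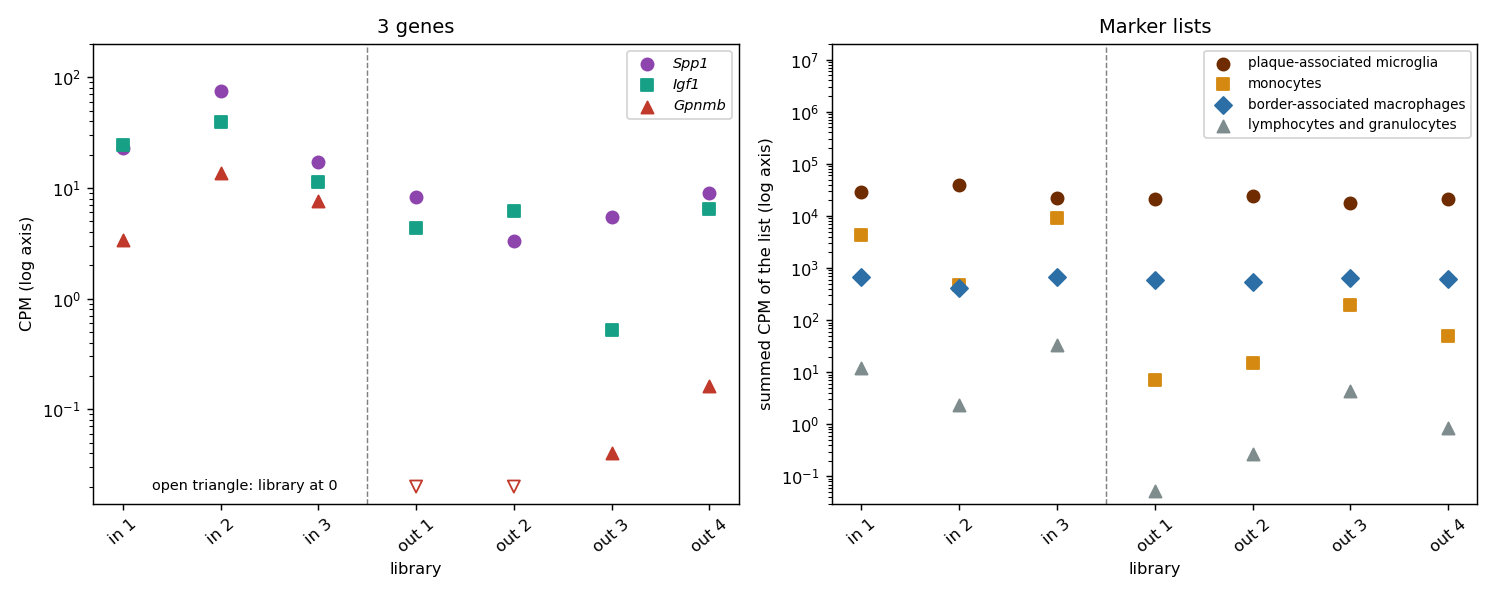
Left, CPM of Spp1, Igf1 and Gpnmb in each of the 7 libraries (log axis, open triangles for a library at 0), and right, summed CPM of 4 marker lists in the same libraries (log axis), with a dashed line between inside and outside. Inside graft 2 (in 2) was highest for the 3 genes and for the plaque-associated list and lowest among the inside libraries for the other 3 lists.

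The genes whose pattern over the 7 libraries was closest to each of these 3 were found by the root mean square difference of centred log2 CPM over 8917 genes with a mean of at least 10 CPM. For Spp1 they were Oas2, an interferon-induced oligoadenylate synthetase (difference 0.51), Apoe, the main apolipoprotein of the brain (0.55), and Gm1966 (0.58). Cd74 (0.73), H2-Ab1 (0.73) and H2-Eb1 (0.79), all genes of MHC class II antigen presentation, were closest to Gpnmb. Its outside values (0 to 0.162 CPM) lay below the 0.5 added to CPM before the log. The addition shrank its difference between groups, so its closest genes depend on that setting. The closest to Igf1 were Cst7, which encodes the protease inhibitor cystatin F (0.39), Axl, a receptor tyrosine kinase (0.54), and Tnfsf8 (0.56). Between the 3 genes themselves the difference was 0.95 for Spp1 and Gpnmb, 0.96 for Spp1 and Igf1 and 1.19 for Gpnmb and Igf1. These were larger than that of any of the closest genes, which were picked from 8917 for small differences. Gpnmb itself was below the mean of 10 CPM needed for that search. This comparison therefore cannot decide whether the 3 genes differ in pattern. As 7 libraries in 2 groups set these patterns, the measure describes likeness in these libraries only.

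Vegfa (chr17:46016993-46032369), the main angiogenic factor of its family, was low in all libraries. It had 8.67, 3.99 and 4.21 CPM in inside graft 1, 2 and 3, and 2.56, 1.47, 3.82 and 3.60 CPM in outside graft 1, 2, 3 and 4. The groups did not overlap, but inside graft 2 lay only just above outside graft 3, and inside graft 1, not inside graft 2, was highest. The log2 fold change of 0.97 (standard error 0.47, 95% confidence interval -0.083 to 2.03, adjusted P = 0.566 in edgeR) included 0, as did that of voomWithQualityWeights (0.86, adjusted P = 0.465). Vegfb (chr19:6982473-6987651), which binds VEGF receptor 1, had 31.2, 44.2 and 33.2 CPM inside and 47.6, 40.9, 37.7 and 39.9 CPM outside the graft. These groups overlapped, with inside graft 2 above 3 of the 4 outside libraries. Its log2 fold change was -0.20 (standard error 0.17, 95% confidence interval -0.58 to 0.18) with an adjusted P of 0.809 in edgeR, and its sign turned when inside graft 2 alone was set against the outside libraries (0.093).

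Pdgfb (chr15:79995874-80014977), which recruits pericytes through PDGF receptor β, had the highest mean level per length of the 10 genes in both groups. Its levels were 139, 148 and 118 CPM in inside graft 1, 2 and 3, and 142, 163, 160.4 and 161 CPM in outside graft 1, 2, 3 and 4. Outside graft 1 lay apart from the other outside libraries and within the inside range. The log2 fold change was -0.22 (standard error 0.12, 95% confidence interval -0.48 to 0.047, adjusted P = 0.623) in edgeR and -0.24 in voomWithQualityWeights, where the unadjusted P was 0.0476 and the adjusted P 0.403. Endothelium also expresses Pdgfb, and the 10 markers of endothelium and mural cells, with Tek at 0 in every library, summed to 23.5, 14.9 and 26.5 CPM inside and to 46.5, 41.8, 28.0 and 40.4 CPM outside the graft. Their part in the levels of Pdgfb was not tested. Pdgfa (chr5:138976014-138997370), a mitogen of oligodendrocyte precursors, had 21.0, 31.8 and 32.3 CPM inside and 25.8, 30.6, 19.4 and 23.6 CPM outside the graft. Inside graft 1 lay within the outside range, and the log2 fold change was 0.19 (standard error 0.22, 95% confidence interval -0.30 to 0.68, adjusted P = 0.868 in edgeR). The antisense gene 6330403L08Rik shares exon bases with Pdgfa and held 75 to 127 counts per library, at most 19.9% of those of Pdgfa, and since strand was ignored its reads and those of Pdgfa cannot be told apart where they overlap. For Vegfb, Pdgfa and Pdgfb the whole 95% interval lay between -1 and 1 in both tests, so for these 3 genes a difference of more than 1 log2 unit lay outside it.

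Hbegf (chr18:36504927-36515805), a membrane-anchored ligand that is released by metalloproteases, had 3.18, 1.78 and 4.09 CPM in inside graft 1, 2 and 3, and 4.11, 6.18, 8.93 and 3.48 CPM in outside graft 1, 2, 3 and 4. The groups overlapped through outside graft 4 and inside graft 3, and inside graft 2 was the lowest library. Its log2 fold change was -0.91 (standard error 0.47, 95% confidence interval -1.96 to 0.14, adjusted P = 0.596) in edgeR and -0.95 (adjusted P = 0.505) in voomWithQualityWeights. Hbegf can also be induced when tissue is dissociated, and the 12 immediate early genes of dissociation summed to between 702 and 854 CPM inside and between 711 and 874 CPM outside the graft. Of these genes 11 were tested and none was called, with 6 higher and 5 lower and a median log2 fold change of 0.64 in edgeR. At an unadjusted P below 0.05, 3 were higher (background 5.76%), and in 3 the inside libraries were all above the outside ones (background 5.65%), and their part in the values of Hbegf was not tested. Gdf15 (chr8:70629393-70632456) had 1, 0 and 14 counts inside and 2, 10, 8 and 15 counts outside the graft. These counts were few and uneven between libraries. The 95% interval of its edgeR log2 fold change of -0.81 ran from -3.64 to 2.02 (adjusted P = 0.911), so neither direction was excluded. In voomWithQualityWeights the log2 fold change was -2.35 (adjusted P = 0.587). The edgeR value was -3.87 without inside graft 3 (unadjusted P = 0.0447, adjusted P = 0.633) and -0.24 without inside graft 2. Bdnf (chr2:109674700-109727007) was not tested, with 0, 0 and 1 counts inside and 6, 0, 1 and 0 counts outside the graft, where a count of 0 allowed up to 0.135 CPM. Outside graft 1, with the 6 counts, also had the highest sum of neuronal markers (12.6 CPM, against 4.04 to 6.45 CPM in the other libraries).

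**Figure D3:**
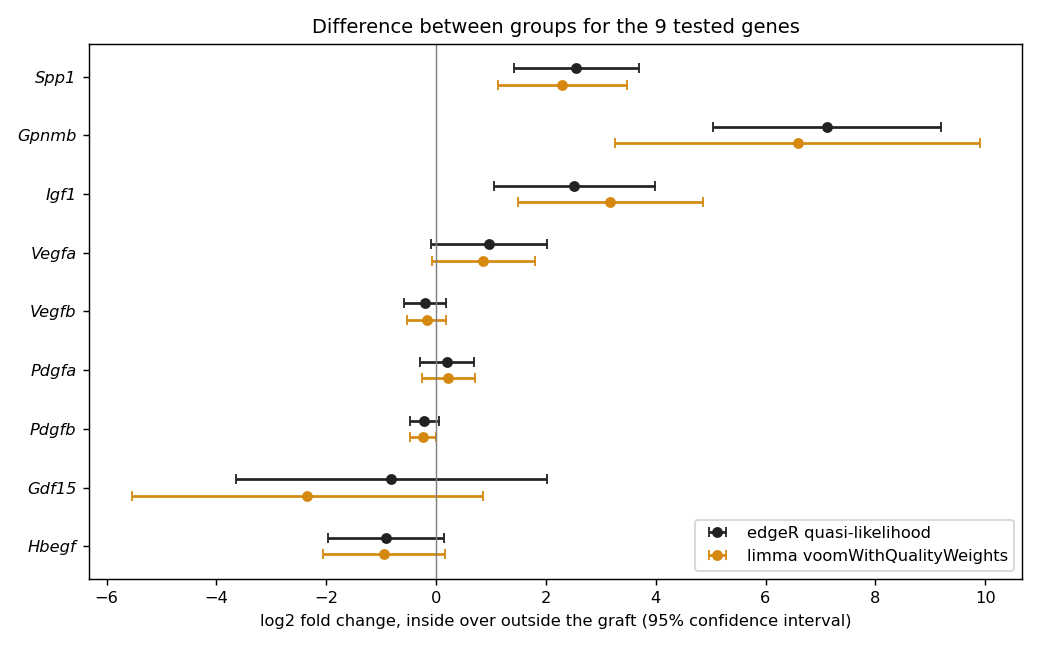
Log2 fold change (inside over outside) of the 9 tested genes, with 95% confidence intervals, in edgeR (black) and voomWithQualityWeights (orange). The intervals of Spp1, Gpnmb and Igf1 lay above 0 in both tests, those of Vegfb, Pdgfa and Pdgfb lay within 1 log2 unit of 0, and that of Gdf15 was wide.

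Levels were compared between genes per kilobase of gene model (RPKM). Outside the graft the order was Pdgfb (37.7 ± 2.35 RPKM, SD, n = 4), Vegfb (25.9 ± 2.65), Pdgfa (7.96 ± 1.49), Spp1 (3.96 ± 1.59), Hbegf (1.17 ± 0.508), Vegfa (0.668 ± 0.252), Igf1 (0.442 ± 0.277), Gdf15 (0.200 ± 0.114), Bdnf (0.0145 ± 0.0249) and Gpnmb (0.0078 ± 0.0118). Each of the first 4 was separate in all libraries from the gene below it, whereas Hbegf, Vegfa, Igf1 and Gdf15 formed a run in which each overlapped with the next, and Bdnf and Gpnmb overlapped with one another. Inside the graft Pdgfb (32.5 ± 3.73 RPKM, SD, n = 3), Spp1 (23.3 ± 19.4) and Vegfb (22.6 ± 4.36) headed the order, and Spp1 overlapped with both of the others. They were followed by Pdgfa (9.10 ± 2.05), which was separate from Vegfb above it and from Igf1 below it. Igf1 (2.53 ± 1.41), Vegfa (1.31 ± 0.616), Gpnmb (1.26 ± 0.787) and Hbegf (0.623 ± 0.241) came next, with overlap between each neighbouring pair. Gdf15 (0.113 ± 0.178) and Bdnf (0.0023 ± 0.0039) were last, separate from Hbegf and overlapping with one another. Spp1 in inside graft 2 reached 45.6 RPKM, above the Pdgfb level of any library. Per length there was more Vegfb than Vegfa in every library, with a ratio of 9.60 to 29.5 inside and 26.4 to 74.4 outside the graft, and more Pdgfb than Pdgfa, with a ratio of 2.74 to 4.96 inside and 4.01 to 6.20 outside. Both pairs of ranges overlapped between groups.

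**Figure D4:**
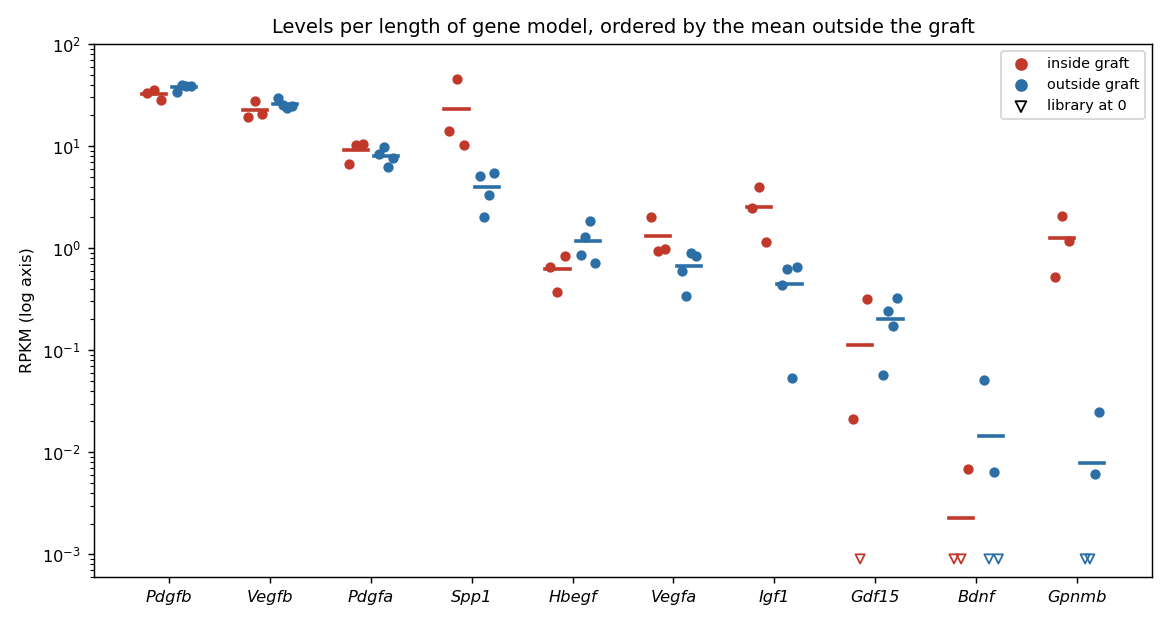
RPKM of the 10 genes (log axis) in each library, inside in red and outside in blue, with lines at the group means and open triangles for libraries at 0, ordered by the outside mean. Gpnmb was the lowest of the 10 genes outside the graft at 0.0078 RPKM and reached 1.26 RPKM inside it.

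The receptors, processing partners and targets of the 10 factors were described by 11 lists of 111 other genes, of which 65 were tested. Neither edgeR nor voomWithQualityWeights called any of them at 0.05. At an unadjusted P below 0.05 in edgeR 12 were higher (background 5.76%) and 2 lower (background 3.79%), which is 21.5% of the 65 against 9.55% of all genes. Of the higher ones, Igf2r (26, 3, 0 and 17 counts outside) passed the filter only through its counts inside the graft. With such genes included, this share is not independent of the difference. The median log2 fold change of the 65 was 0.14, against -0.0064 over all tested genes. The groups did not overlap in 5 of the 65, with the inside libraries above in 4 and below in 1, where the background was 10.7% (5.65% above and 5.02% below). Genes named from these lists are the 2 most abundant and the 1 with the largest fold change in each, and any other was named after its values were seen.

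Among the 9 receptors of osteopontin, 8 were tested, with 4 higher and 4 lower and a median log2 fold change of 0.04. Cd44 had 17.9, 10.9 and 27.9 CPM in the inside libraries and 0.107, 1.96, 2.98 and 2.997 CPM in the outside ones, in the order of their numbers. These groups did not overlap, and inside graft 2, highest for Spp1, was the lowest inside library for this receptor. In edgeR the log2 fold change of Cd44 was 3.22 (standard error 0.70) with an adjusted P of 0.109, and voomWithQualityWeights gave an adjusted P of 0.0550. The abundant integrin genes Itgb5 (0.14, adjusted P = 0.791) and Itgb1 (-0.08, adjusted P = 0.905) had edgeR log2 fold changes near 0. All 6 partners of Gpnmb were tested (median -0.06, 2 higher and 4 lower), among them the sheddase gene Adam10 (-0.04), the transcription factor gene Tfe3 (-0.15), and Pmel, the closest relative of Gpnmb (-0.78, at most 1.54 CPM in a library, adjusted P = 0.909 in edgeR).

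In the IGF axis 6 of 14 genes were tested, with 3 higher and 3 lower and a median log2 fold change of 0.10. The insulin receptor gene Insr (-0.09, adjusted P = 0.919) and the adaptor gene Irs2 (-0.05, adjusted P = 0.963) had edgeR log2 fold changes near 0. Igf2r, a receptor that clears IGF2, had 11.1, 1.07 and 13.2 CPM in inside graft 1, 2 and 3 and at most 1.39 CPM outside the graft (log2 fold change 3.95, standard error 1.14, adjusted P = 0.229 in edgeR). As with Cd44, inside graft 2 was its lowest inside library, here within the outside range, so its libraries followed an order unlike that of Igf1. Like Gpnmb, Igf2r passed the filter only through its counts inside the graft.

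In the VEGF axis 4 of 8 genes were tested (median log2 fold change 0.43, or 0.18 without inside graft 2, with 3 higher and 1 lower). The co-receptor gene Nrp1 was even within groups, with 346, 344 and 338 CPM inside and 213, 263, 243 and 258 CPM outside the graft. All inside libraries lay above all outside ones, and the log2 fold change was 0.49 (standard error 0.11) with an adjusted P of 0.109 in edgeR and 0.0534 in voomWithQualityWeights. Nrp2 (0.36, adjusted P = 0.560) and Flt1, which encodes VEGF receptor 1 (1.14, adjusted P = 0.838, at most 4.39 CPM in a library), did not pass in edgeR. Of the PDGF axis only Pdgfc and Pdgfrb of 4 genes were tested, at no more than 2.59 and 1.91 CPM in a library.

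The receptors and relatives of Bdnf were mostly at very low counts, and 2 of 10 genes were tested. The pro-neurotrophin receptor gene Sort1 (-0.16, adjusted P = 0.816) and the convertase gene Furin (-0.02, adjusted P = 0.986) were the tested ones in edgeR. Neither of the 2 genes of the GDF15 receptor was tested, and Ret was at 0 in every library. In the EGF axis 4 of 14 genes were tested. The other ligand genes Areg, Ereg, Btc and Epgn were at 0 in all libraries and Egf had at most 6.44 CPM. Tgfa, another ligand of the EGF receptor, had 186, 136 and 120 CPM inside and 209.8, 169, 226 and 199 CPM outside the graft. These groups overlapped through inside graft 1, and the edgeR log2 fold change of Tgfa was -0.45 (standard error 0.16, adjusted P = 0.392). Cd9, a tetraspanin partner of HB-EGF, had a log2 fold change of 0.57 (adjusted P = 0.330), the sheddase gene Adam17 one of 0.09 (adjusted P = 0.929) and Egf one of -1.27 (adjusted P = 0.762) in edgeR. Another 18 trophic factors were taken beside the 10 genes, of which 9 were tested, with 5 higher and 4 lower. Their median log2 fold change of 0.24 was smaller when 1 library was left out, at 0.028 for inside graft 1, at 0.083 for inside graft 2, at 0.11 for outside graft 3 and at 0.027 for outside graft 4. Grn, the progranulin gene (0.27, adjusted P = 0.596), Manf (-0.0017, adjusted P = 0.999) and Hgf (1.10, adjusted P = 0.604) were among them, and Gdnf, Nrtn, Artn and Lif were at 0 in every library.

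Targets of hypoxia-inducible factors, the program that also controls Vegfa, had 12 of 15 tested genes higher, against 7504 of all 15257 genes, and a median log2 fold change of 0.33. This median was 0.13 without inside graft 2. At an unadjusted P below 0.05 in edgeR, 5 were higher (background 5.76%) and 1 lower (background 3.79%). The glycolytic gene Aldoa had 507, 710.1 and 429 CPM inside and 409, 493, 422 and 385 CPM outside the graft, a log2 fold change of 0.36 (adjusted P = 0.546), and the collagen hydroxylase gene P4ha1 had one of 0.05 (adjusted P = 0.963) in edgeR. Ndrg1 had the largest fold change of the list (1.94, adjusted P = 0.776), at no more than 1.95 CPM in a library. The integrated stress response, known to induce Gdf15, had 4 of 9 tested genes higher and 5 lower (median -0.05), with Atf4 at -0.05 (adjusted P = 0.950) and Cebpb at 0.08 (adjusted P = 0.905). Asns had 18.2 CPM in inside graft 3 and at most 1.49 CPM outside, but not every inside library lay above the outside ones. Its groups thus overlapped, and its log2 fold change was 3.27 (adjusted P = 0.320 in edgeR).

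**Figure D5:**
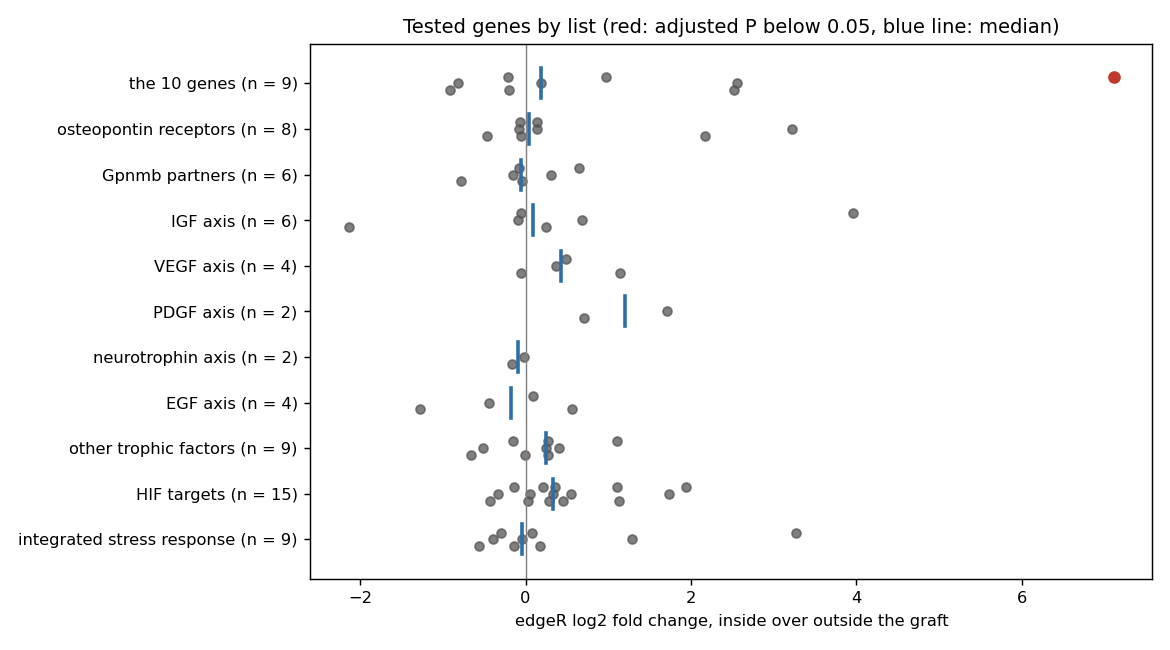
Log2 fold change in edgeR of each tested gene (points), for the 10 genes and 10 lists of their pathways (the GDF15 receptor list had no tested gene), with the median of each list as a blue line and genes called at an adjusted P below 0.05 in red. Gpnmb, at 7.11, was the only gene called by edgeR among those shown.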

How the data were processed

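The authors deposited raw read counts per gene name, 1 column per library, without normalization. Per their methods and processing notes, reads were demultiplexed with bcl2fastq 2.18, aligned with STAR 2.7.2a to GRCm38.p6 and counted with featureCounts 1.6.2 without strand, leaving out reads that aligned to several places. From these counts, CPM on TMM sizes, RPKM (CPM divided by the gene model length in the table) and fold changes were computed in edgeR 4.0.16 and limma 3.58.1 under R 4.3.3, with DESeq2 1.42.0 as an alternative. Low counts were removed with filterByExpr, given the groups. The edgeR test was glmQLFit and glmQLFTest (legacy settings) and the limma test voomWithQualityWeights, lmFit and eBayes, both with Benjamini-Hochberg adjustment over 15257 genes and no covariates. Standard errors in edgeR are those implied by the F statistic. The fits were tested on simulated data. Samples were grouped by their titles. The genes and lists were chosen with earlier results of these data known, and the PU.1 and RUNX motifs after the 3 sequences had been seen. Named genes were all 10, and from each pathway list any gene called in either test, or otherwise the 2 most abundant and the 1 with the largest fold change. The 3 closest genes were searched with 0.5 added to CPM before the log. Alternatives were other normalizations, filters, tests and thresholds, thinning, a replicate block and each library left out. Totals ran from 18644807 to 25882122 reads, which had been amplified and carried no molecular identifiers. Counting intervals and floors therefore cover counting error only.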

Additional observations from a re-analysis of the deposited data

Results flagged for a closer look

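Over the 4 outside libraries, 33 values were examined for a library far from the others, and 5 stood out. At 1 in 20, 1.65 would be flagged if the values were independent. They share the same 4 libraries, and for Bdnf and the GDF15 receptor most lie at or near 0, where a few counts stand out. The 1.65 is therefore not a chance expectation for these values. All 5 were in outside graft 1, which also had the fewest counted reads. Pdgfb had 142 CPM there, against 160.4 to 163 CPM in the other outside libraries. Bdnf had 0.320 CPM, from 6 counts, against at most 0.0402 CPM. The 2 genes of the GDF15 receptor summed to 0.854 CPM, against 0. The immediate early genes of dissociation summed to 711 CPM, against 859 to 874 CPM, and the neuronal markers to 12.6 CPM, against 5.20 to 6.12 CPM.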

How the results depend on the processing

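The number of the 10 genes called depended on the processing. Against 1 in edgeR, 3 were called with the DESeq2 Wald test and with no filter on low counts, 0 with limma-voom without quality weights, at 0.01 and with inside graft 2 alone, and 0 to 1 with each library left out. Against 0 in voomWithQualityWeights, 1 was called with no filter, 2 with a minimum of 10 counts per library and with inside graft 2 alone, and 0 to 2 with each library left out. Over all genes, the 15 called by edgeR became 366 with no filter, 92 with a minimum of 10 counts per library, 420 with DESeq2, 3 with inside graft 2 alone, 0 at 0.01 and 0 to 73 with each library left out. The 75 called by voomWithQualityWeights became 225 with no filter, 211 with the minimum of 10 counts, 145 with inside graft 2 alone, 3 at 0.01 and 1 to 207 with each library left out. Of the pathway genes, 0 in either test, edgeR called 3 with no filter, 6 with DESeq2 and 0 to 1 with a library left out, and voomWithQualityWeights called 1 with median-of-ratios size factors, 2 with no filter, 3 with the minimum of 10 counts, 4 with inside graft 2 alone and 0 to 3 with a library left out. The causes were not tested.

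Of the single fold changes of the 9 tested genes under all alternatives, 271 stayed on the same side of 0 and of the threshold, 16 passed it newly, 7 lost it and 2 turned. Those were Vegfb with inside graft 2 alone against the outside libraries, at 0.093 in edgeR and 0.15 in voomWithQualityWeights. In DESeq2 the adjusted P was 5.54e-11 for Gpnmb, 2.91e-05 for Spp1 and 0.00350 for Igf1. With the minimum of 10 counts Gpnmb was not tested, and the 1 gene called by edgeR was Spp1, while voomWithQualityWeights called Spp1 and Igf1. The comparison with inside graft 2 alone was added after the values were seen and assumes that the lone library varies like the outside ones. That library was the highest for Spp1, Gpnmb and Igf1, so its larger fold changes follow from the choice and bear on no cause. With each library left out, the median log2 fold change ran from -0.034 to 0.12 for the osteopontin receptors, from -0.13 to 0.0031 for the partners of Gpnmb and from -0.077 to 0.015 for the integrated stress response.

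Whether the replicate numbers pair the libraries could not be decided from the labels or from these few correlations. Same-numbered deviations had correlations of -0.12, 0.26 and 0.24, and differently numbered ones ran from -0.38 to 0.20. The numbers were not taken as pairs in the main fits. With the number as a replicate block, which leaves out outside graft 4, edgeR called 1 of the 10 genes and 43 of all genes, and voomWithQualityWeights 3 of the 10, 3 pathway genes and 265 of all genes.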
